A study of Mus musculus with 14 samples.

Results

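Transcript levels of 9 transcription factors and chromatin proteins that mark lung, gut and progenitor identity were followed across all 14 libraries of a mouse lung adenocarcinoma line. The genes were Nkx2-1, Foxa1, Foxa2, Hnf4a, Gata6, Sox2, Sox9, Cdx2 and Hmga2, taken by symbol from both deposited count tables, and 9 of 55415 rows of each table carry these symbols. TR.1 is a cell line described as lung adenocarcinoma with a Trim24-Ret fusion, in which the Ret receptor tyrosine kinase gene is joined to Trim24. All groups come from this line and carry the fusion, so the values describe 1 line. Selpercatinib and pralsetinib inhibit the RET kinase, and controls received their solvent, DMSO. The acute table holds 4 libraries of cells given DMSO and 4 of cells given 100 nM selpercatinib, 1 of each on days 1, 2, 3 and 5. The resistance table holds 2 libraries of parental cells passaged in DMSO, 2 of selpercatinib-resistant cultures at 500 nM and 2 of pralsetinib-resistant cultures, labelled 200 nM and 400 nM. Per the labels' protocol, resistant cultures were started at 30 nM and the concentration was raised over about 60 days until the cells grew at 400 to 500 nM, which the 200 nM label does not match, so that dose is uncertain.

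NKX2-1 is the homeodomain factor that specifies lung epithelium from foregut endoderm and drives surfactant genes. FOXA1, FOXA2 and GATA6 are pioneer or early endoderm factors shared by lung, gut and liver, whereas HNF4A and CDX2 belong to gastric, liver and intestinal programmes, which can appear in lung adenocarcinoma when NKX2-1 is low. SOX2 and SOX9 mark proximal airway and distal tip progenitors of the developing lung, and HMGA2 is an architectural chromatin protein of fetal and poorly differentiated cells whose mRNA is a classical target of the let-7 microRNAs.

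Library totals ran from 60.7 to 89.8 M counts, at which 3 counts correspond to 0.0334 to 0.0494 CPM (counts scaled to a library of 1 M), a floor for counting error only. CPM values are scaled by TMM, which corrects for differences in RNA composition. All 9 genes passed the filter on low counts in both tables. Libraries of the same group in the resistance table were not duplicates of each other. The chi-square of their counts, divided by its degrees of freedom, was 7.02 in the parental pair, 13 in the selpercatinib-resistant pair and 44.8 in the pralsetinib-resistant pair, where sampling noise alone gives about 1. The labels do not say that libraries of a group came from separate cultures, and p-values therefore cover the spread among these libraries only, which may be technical. The labelled cell type was checked against marker genes. Epithelial keratins and junction genes were abundant in untreated cells, with a summed level of 9 genes of 7409 to 9333 CPM in acute DMSO and 9558 to 9643 CPM in parental cells. Of 7 alveolar type 2 markers, Sftpc, Sftpb, Sftpa1, Lamp3 and Napsa were below 1 CPM in every library, Slc34a2 reached 1.5 CPM in selpercatinib-resistant cells, and Abca3 ran from 49.4 to 107 CPM. Of 3 club cell markers, Scgb3a2 was at 0 in all groups and Scgb1a1 was below 1 CPM in every library. Cyp2f2 ran from 0.39 to 0.407 CPM in selpercatinib-resistant and from 0.886 to 1.01 CPM in pralsetinib-resistant cells, and was at 0 in parental cells. Among 8 leukocyte markers, Ptprc, Adgre1, Cd3e and Itgam were below 1 CPM in every library, and 2 or 3 had a mean of at least 1 CPM in each group. Their summed level was 18 to 29.9 CPM in acute DMSO, 21.8 to 29.4 in acute selpercatinib, 29.3 to 30.5 in parental, 74.7 to 76.3 in selpercatinib-resistant and 55.4 to 88 CPM in pralsetinib-resistant libraries, of which Cd14 gave 69.1 to 71.3 and 50.3 to 82.6 CPM in the resistant groups.

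Untreated TR.1 cells carried high HMGA2 and SOX9 transcripts and little NKX2-1, and in acute DMSO also little SOX2. Per kilobase of exon, Hmga2 stood at 199 ± 27.3 CPM (SD, n = 4) in acute DMSO, followed by Sox9 at 36.9 ± 3.02 and Foxa1 at 19.9 ± 4.48. By this measure Hmga2 ranked 194 among 13141 genes with a mean of at least 1 CPM, and Nkx2-1 ranked 11286. Foxa2 (11.5 ± 1.28), Hnf4a (10.1 ± 2.99), Gata6 (9.72 ± 1.05) and Cdx2 (8.28 ± 3.34 CPM per kilobase) lay close together and their ranges overlapped. Sox2 at 2.56 ± 0.21 and Nkx2-1 at 1.14 ± 0.166 CPM per kilobase were the lowest of the 9. Parental cells of the resistance table gave a similar picture for Hmga2 at 237, Sox9 at 42.3 and Nkx2-1 at 0.651 CPM per kilobase, although the tables were normalised separately and no test was made across them. Sox2 stood at 7.21 CPM per kilobase in parental cells and ranked 6430 among 13195 genes, against 9573 among 13141 in acute DMSO. The largest shift between the untreated groups of the tables was in Sox2, which was 2.81 times as high in parental cells (14.4 and 15.3 CPM) as in acute DMSO (4.9 to 5.81 CPM). Bulk libraries cannot tell fewer cells expressing a gene from less RNA per cell.

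**Figure D1:**
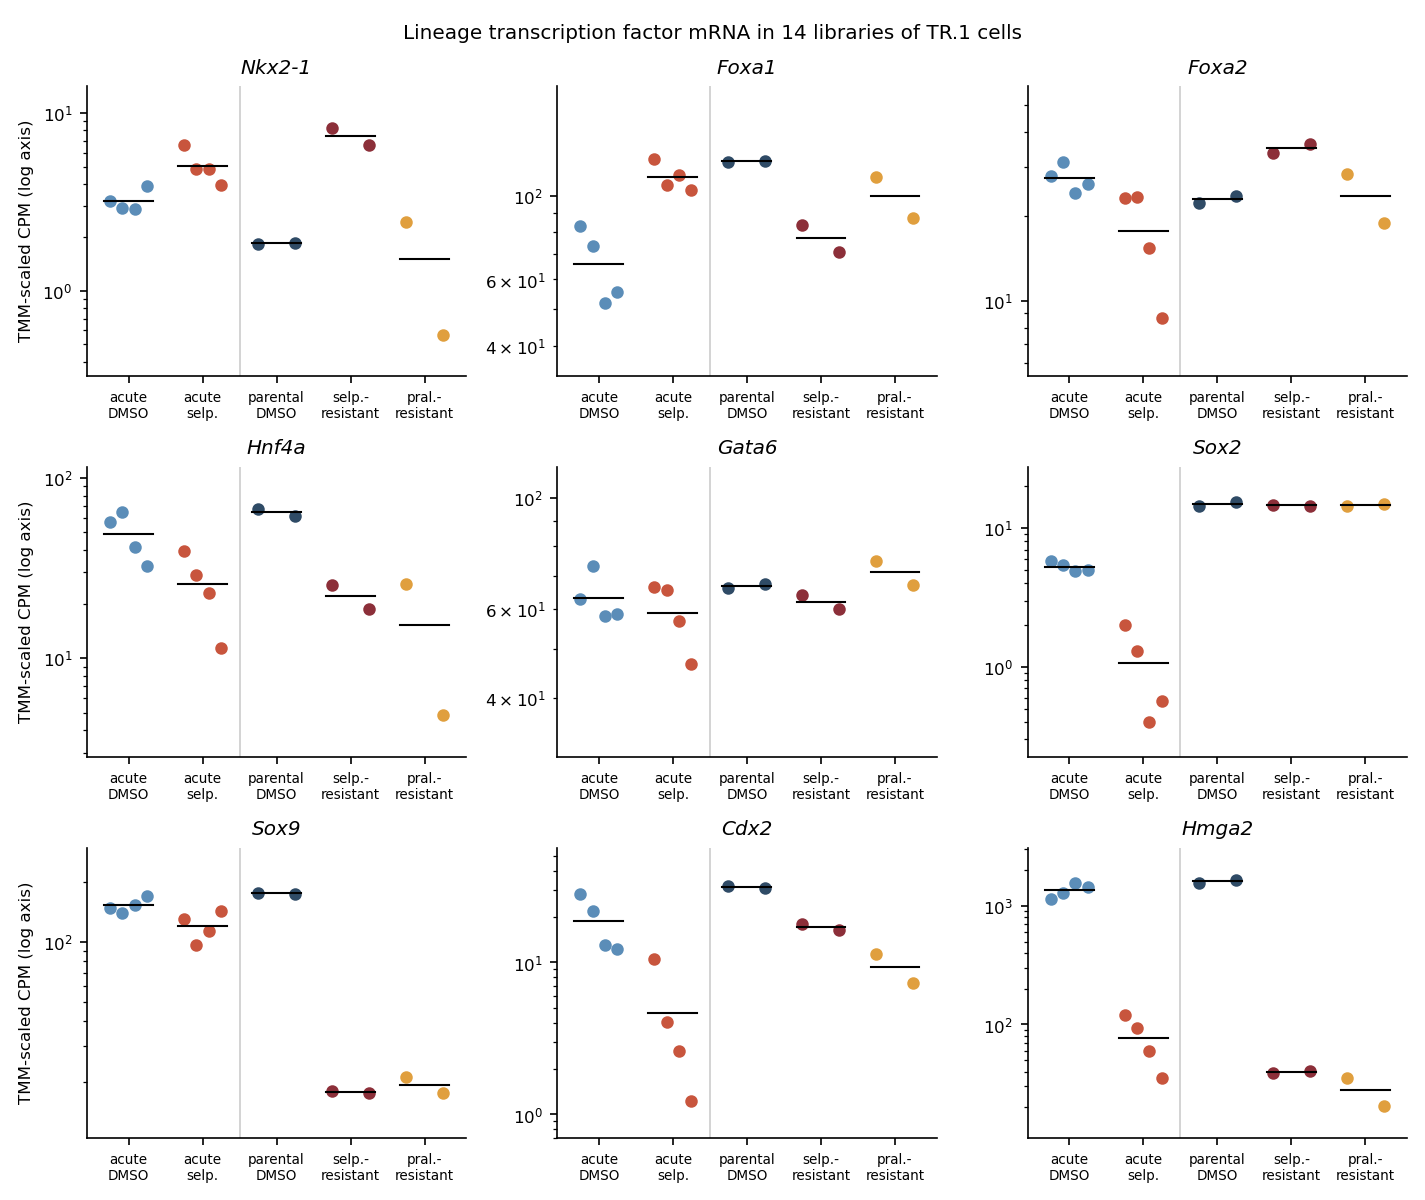
TMM-scaled CPM on a log axis for each of the 9 genes in each of 14 libraries, with a bar at the group mean; acute libraries are drawn in the order of days 1, 2, 3 and 5, and the vertical line separates tables normalised separately. Hmga2 drops in all treated and resistant groups, Sox9 drops in the resistant groups, Sox2 drops under acute treatment and is level across the resistance table, and the 2 pralsetinib-resistant libraries stand apart in Nkx2-1 and Hnf4a.

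The first question was which of these genes respond to a RET inhibitor over 5 days. Of the 9 genes, 8 passed the test, 2 higher and 6 lower with selpercatinib, where 53.5% of all 13209 genes tested passed (26.6% higher and 26.9% lower). The share of these genes that passed is therefore to be read against a table in which most genes passed, as are the counts for the gene lists given with them. Their median log2 difference was -0.72, against -0.00194 over all genes. The fit had day as a block, since in the labels a day is a batch that holds both arms, and without the block 5 of the 9 and 5070 of all genes passed, against 7072 with it.

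Hmga2 had the largest difference of the 9 and the most reads behind it. In DMSO its level was 1135, 1272, 1557 and 1435 CPM on days 1, 2, 3 and 5, and in selpercatinib it was 121, 93.5, 59.2 and 35.5 CPM. The lowest DMSO library lay far above the highest treated library. The log2 difference was -4.26 (SE 0.37), with an edgeR adjusted p = 0.000216 by Benjamini-Hochberg. The gap widened from 9.39-fold on day 1 to 40.4-fold on day 5, a slope of -0.54 (SE 0.06) log2 units per day (edgeR adjusted p = 0.0159). That slope rests on day 1, without which its adjusted p was 0.113 with a value of -0.48. Mean level per kilobase fell to 11.4 ± 5.54 CPM, which placed Hmga2 below Foxa1 (33.8 ± 2.7) and Sox9 (29.1 ± 4.88) in treated cells. The gene lies at chr10:120361275-120476469 on the minus strand (mm10), and an antisense transcript, 1700006J14Rik, overlaps 140 bases of its exons but had 1606 counts over the acute table against 423921 for Hmga2.

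The let-7 family is shown because its members share the seed that pairs with the Hmga2 3′ untranslated region. Of the family, 9 mature mouse microRNAs in RefSeq (GRCm38.p6) have the same bases 2 to 8, given in capitals in these 3:
mmu-let-7a-5p: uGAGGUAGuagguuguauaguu
mmu-let-7g-5p: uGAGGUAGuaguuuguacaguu
mmu-let-7i-5p: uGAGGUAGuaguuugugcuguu

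The 3014-base 3′ untranslated region of Hmga2 holds 4 matches to this seed, and those of the other 8 genes hold 0. The matches, in capitals on the transcribed strand (mm10, minus strand), lie at chr10:120364224-120364247, chr10:120362987-120363010, chr10:120362549-120362572 and chr10:120361691-120361714:
Hmga2 site 1: cgccgacattcaatttCTACCTCa
Hmga2 site 2: tccccactcctcaataCTACCTCt
Hmga2 site 3: cctgatttgcaaggaaCTACCTCc
Hmga2 site 4: caatcaaaacacactaCTACCTCt
Over 21020 genes with an annotated 3′ untranslated region, 9.02% hold at least 1 match to CTACCTC and 12 genes (0.0571%) hold 4 or more. Mature microRNAs were not measured here, and a match is a description of the sequence.

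Genes that work with or beside HMGA2 were taken as a list of HMGA2, LIN28 and let-7 target genes. Of 17 tested, 7 were lower and 2 higher under acute selpercatinib, 9 in all beside the 53.5% of all genes that passed, with a median log2 difference of -0.22. Hmga1, the paralogous chromatin protein, went from 1423 ± 229 CPM in DMSO to 132 ± 42.2 CPM with selpercatinib (SD over 4 libraries), a log2 difference of -3.47 (SE 0.23). Mycn, a MYC family factor and let-7 target, moved the other way, from 0.669 ± 0.136 to 9.63 ± 2.1 CPM, a log2 difference of 3.82 (SE 0.24). Mycn was below 1 CPM in every DMSO library and passed the filter only through treated libraries. Arid3a, an ARID family DNA-binding factor, was also higher (1.21, SE 0.13), and Plagl2, a zinc-finger factor, was lower (-0.58, SE 0.10), all on the log2 scale and called by edgeR. Lin28a, which blocks let-7 maturation, was below 1 CPM in every library, and its relative Lin28b stood at 5.64 ± 1.89 CPM in DMSO and at 3.72 ± 1.53 CPM with selpercatinib.

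Cdx2, the intestinal homeobox factor at chr5:147300805-147307270 (minus strand), was lower with drug on every day and also declined with days in DMSO. Its DMSO values were 28.1, 21.7, 13 and 12.2 CPM on days 1, 2, 3 and 5, and its selpercatinib values were 10.6, 4.07, 2.63 and 1.23 CPM. The arms did not overlap and differed by -2.33 on the log2 scale (SE 0.29, edgeR adjusted p = 0.000848), and the ratio of DMSO to selpercatinib was 2.64 on day 1 and 9.89 on day 5. The slope of that difference, -0.43 per day (SE 0.09), did not pass the test (edgeR adjusted p = 0.059). In the DMSO arm the slope over days passed for 3 of the 9 genes, all downward, where 33.8% of all genes passed (18% higher and 15.9% lower). These were Cdx2 at -0.31 (SE 0.09), Hnf4a at -0.24 (SE 0.05) and Foxa1 at -0.15 (SE 0.05) log2 units per day. With 1 library per day, none of the 3 slopes passed without day 1 or without day 2.

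Sox2, a single-exon gene at chr3:34650405-34652461, was low and fell further. Its DMSO libraries held 5.81, 5.43, 4.9 and 4.95 CPM, and its selpercatinib libraries 2.01, 1.29, 0.401 and 0.566 CPM, the last of these from 46 counts on day 5. Every treated library was below every control, with a log2 difference of -2.53 (SE 0.36) and an edgeR adjusted p = 0.00152. Sox2 lies inside the same-strand transcript Sox2ot, which shares no exon bases with it and had 10 counts over the acute table. Squamous and basal genes were mostly not expressed, and 3 of 13 in the table were tested. Krt14, a basal keratin, rose from 1.71 ± 1.06 to 16.8 ± 6.12 CPM (log2 difference 3.38, SE 0.27), the desmosomal cadherin Dsg3 rose by 1.35 (SE 0.34), and the homeobox gene Pitx1 fell from 1.56 ± 0.365 to 0.297 ± 0.149 CPM, whereas the basal markers Krt5 and Trp63 were below 1 CPM in both arms.

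The promoter windows of the genes with the largest acute falls are shown for Sox2 (chr3:34649745-34649994, plus strand), Cdx2 (chr5:147307271-147307499, minus strand) and Hmga2 (chr10:120476470-120476719, minus strand), from RefSeq on GRCm38.p6, 5′ to 3′ on the gene's strand. Capitals mark matches to any of 5 motifs, searched on both strands of 250 bases before the start: the ETS core CCGGAA, the AP-1 site TGANTCA, the GC box GGGCGG, the forkhead core TGTTTAC and the CDX core TTTATG.
Sox2: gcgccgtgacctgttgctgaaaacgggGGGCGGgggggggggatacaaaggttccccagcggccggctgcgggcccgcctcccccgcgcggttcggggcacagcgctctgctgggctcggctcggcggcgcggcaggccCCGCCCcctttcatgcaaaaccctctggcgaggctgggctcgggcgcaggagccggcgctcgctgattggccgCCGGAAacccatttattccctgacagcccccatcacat
Cdx2: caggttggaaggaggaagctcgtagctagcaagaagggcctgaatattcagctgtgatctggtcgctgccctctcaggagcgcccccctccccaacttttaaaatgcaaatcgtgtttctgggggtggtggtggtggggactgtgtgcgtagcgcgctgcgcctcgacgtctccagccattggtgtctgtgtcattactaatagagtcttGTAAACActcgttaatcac
Hmga2: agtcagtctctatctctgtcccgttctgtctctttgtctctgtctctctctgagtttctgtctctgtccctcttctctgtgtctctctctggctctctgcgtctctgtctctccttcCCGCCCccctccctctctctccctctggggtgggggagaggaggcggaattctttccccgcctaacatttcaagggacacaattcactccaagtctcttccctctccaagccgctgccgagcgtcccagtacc
The Sox2 window holds 2 GC boxes and an ETS core 38 bases before the RefSeq start. The Cdx2 window holds a forkhead core 40 bases before the RefSeq start, and the Hmga2 window a GC box. The Sox2 window ends at 34649994, upstream of the annotated gene start at 34650405, so its distances do not count from that annotated start. Over 32851 promoters, 12% hold the ETS core, 6.75% the AP-1 site, 32.7% the GC box, 3.17% the forkhead core and 10.8% the CDX core. The Cdx2 window is printed as 229 bases, because the 21 bases nearest the start lie inside the annotated gene and are not shown. These matches are letters in the window and were not tested against binding.

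Hnf4a, the nuclear receptor of liver, stomach and intestine, fell less and with more overlap. In DMSO it stood at 57, 64.4, 41.4 and 32.6 CPM on days 1, 2, 3 and 5, and in selpercatinib at 39.6, 29.1, 22.9 and 11.4 CPM. The arms overlap across days, but each treated library was below the control of its own day. The log2 difference was -1.01 (SE 0.16, edgeR adjusted p = 0.00229), and without the day block the adjusted p was 0.0747. Hnf4a (chr2:163506808-163572910, plus strand) has 2 promoters in RefSeq, and counts per gene do not separate their isoforms. Of 14 gut, gastric and liver genes tested, 6 fell and 4 rose, with a median of -0.26. Cdh17, an intestinal cadherin and a known CDX2 target, fell from 21.7 ± 17.1 to 0.974 ± 1.01 CPM, a log2 difference of -4.60 (SE 0.20), and the pancreatic and foregut factor Pdx1 fell by 2.06 (SE 0.21) from 2.15 ± 0.366 CPM. Apob, the apolipoprotein of liver and intestine, rose from 20.7 ± 9.4 to 163 ± 59.5 CPM (3.05, SE 0.33), and the gastric protease gene Ctse rose by 1.65 (SE 0.12). Genes of this list thus passed in both directions.

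The forkhead factors went opposite ways. Foxa1 (chr12:57540628-57546916, minus strand) stood at 83.3, 73.7, 52 and 55.5 CPM in DMSO and at 125, 107, 114 and 104 CPM in selpercatinib, with no overlap and a log2 difference of 0.79 (SE 0.11, edgeR adjusted p = 0.00155). Foxa2 (chr2:148042877-148046969, minus strand) stood at 27.8, 31.3, 24.2 and 26 CPM in DMSO and at 23.3, 23.4, 15.4 and 8.64 CPM in selpercatinib. Its arms also did not overlap, although the gap was small on day 1 and a factor of 3.01 on day 5. The log2 difference was -0.72 (SE 0.22, edgeR adjusted p = 0.0285), and the difference moved by -0.34 (SE 0.06) per day (edgeR adjusted p = 0.0432). Without day 3 the adjusted p of the difference was 0.0792, and without day 5 the slope was -0.18 with an adjusted p of 0.247. The Foxa2 slope also missed the threshold without day 1 (adjusted p = 0.19) and without day 2 (0.0698). Foxa2 and Hmga2 were the 2 of 9 whose difference moved with day, where 2.06% of all genes passed (0.78% higher and 1.28% lower).

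**Figure D2:**
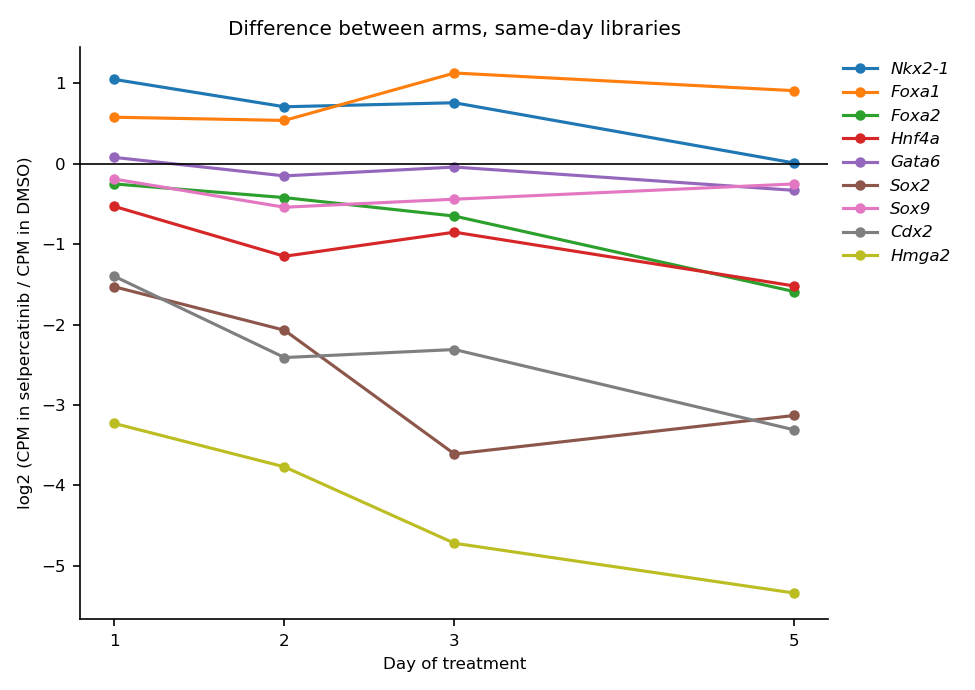
The log2 ratio of CPM in selpercatinib to CPM in DMSO from the 2 libraries of each day, 1 point per day and gene, against day of treatment. Hmga2 runs from -3.23 on day 1 to -5.34 on day 5, Cdx2 and Sox2 lie below -1 throughout, Foxa1 lies above 0 on all days, Nkx2-1 reaches 0.01 on day 5, and Gata6 stays near 0.

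Nkx2-1 (chr12:56531958-56536908, minus strand) was low and slightly higher with drug. DMSO libraries held 3.19, 2.93, 2.88 and 3.9 CPM on days 1, 2, 3 and 5, and selpercatinib libraries held 6.62, 4.82, 4.88 and 3.94 CPM. The treated libraries were all above the controls, by a factor of 2.07 on day 1 and 1.01 on day 5. The log2 difference was 0.64 (SE 0.20, edgeR adjusted p = 0.0318), and the adjusted p was 0.0818 without day 1, 0.0973 without day 2 and 0.0955 without day 3. Of 11 airway and alveolar genes tested, 4 rose and 4 fell, with a median of -0.05, and another 13 of the 24 listed, among them the surfactant genes Sftpa1, Sftpb, Sftpc and Sftpd, were below 1 CPM in every library of both arms. Foxj1, the factor that drives motile cilia, rose from 5.19 ± 2.44 to 114 ± 47.6 CPM (4.43, SE 0.51), and the lipid transporter Abca3 rose from 62 ± 12.2 to 95.2 ± 5.3 CPM (0.64, SE 0.10). The tight junction claudins split, since Cldn3 rose by 0.91 (SE 0.10) and Cldn18 fell by 1.90 (SE 0.31). Of the 3 ciliated cell markers, Dnah5 was below 1 CPM in every library and Tubb4b ran from 145 to 644 CPM in DMSO and from 160 to 420 CPM with drug, so Foxj1 was the 1 of 2 tested that rose.

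Sox9 fell little under acute treatment and Gata6 did not pass the test. Sox9 (chr11:112782224-112787760, plus strand) stood at 148, 140, 153 and 169 CPM in DMSO and at 130, 96, 113 and 143 CPM in selpercatinib. The arms overlap, but the treated library was lower on each day, by a factor of 1.14 to 1.46. The log2 difference was -0.36 (SE 0.08, edgeR adjusted p = 0.0104), which was lost without day 2 (0.0577) and without the day block (0.0644). Gata6 (chr18:11052064-11085635, plus strand) ran from 58.2 to 73 CPM in DMSO and from 46.8 to 66.5 CPM in selpercatinib, a log2 difference of -0.11 (SE 0.09, edgeR adjusted p = 0.323). Of 6 SOX9 partner and cartilage genes tested, 2 rose and 2 fell. The proteoglycan gene Acan, a SOX9 target in cartilage, fell from 188 ± 19.3 to 13 ± 11.6 CPM (-4.25, SE 0.50), and Etv4, an ETS factor, fell by 2.80 (SE 0.08). The collagen genes Col11a1 (from 6.77 ± 3.66 to 104 ± 49.3 CPM) and Col2a1 (from 0.486 ± 0.234 to 6.11 ± 5.34 CPM) rose. Col2a1 was below 1 CPM in every DMSO library and passed the filter only through treated libraries.

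Among 29 other lung and foregut transcription factors tested, 5 rose and 12 fell under acute selpercatinib. Etv5, an ETS factor of the distal lung, fell from 80.9 ± 14 to 8.02 ± 1.47 CPM (-3.33, SE 0.08), and Irx3 fell by 1.46 (SE 0.15). Sox11 rose from 22.4 ± 3.46 to 172 ± 42.5 CPM (2.91, SE 0.19), and Irx1 rose by 1.93 (SE 0.18). Epithelial marker genes were higher in treated cells, where 7 of 9 rose and their summed level was 12889 to 13845 CPM. Smooth muscle markers also had a higher summed level with treatment. The 3 tested, Acta2, Myl9 and Cnn1, were below 1 CPM in every DMSO library. They passed the filter only through treated libraries, so their count as higher was set by selection. The summed level of 6 genes was 62.3 to 1193 CPM against 1.04 to 1.46 CPM in DMSO. Acta2 gave 49.7 to 808 CPM in treated libraries, and Des stayed below 1 CPM. Of 4 alveolar type 1 markers tested, 3 rose and 1 fell, with a median of 2.51. The summed level of 5 genes was 202 to 354 CPM against 24.3 to 29.5 CPM in DMSO. Akap5 alone gave 184 to 290 against 11.7 to 19.7 CPM of these sums. Hopx was below 1 CPM in both arms, and Aqp5 was lower with drug (1.74 to 5.09 against 6.36 to 11.6 CPM). Whether these marker shifts bear on the levels of the 9 genes was not tested.

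The resistance comparisons ask what distinguishes cultures that grow in either inhibitor from parental cells. Hmga2, Sox9 and Cdx2 were lower in both resistant groups, Hnf4a was lower in both with calls that several alternatives lost, Nkx2-1 was higher in selpercatinib-resistant cells, and Sox2 and Gata6 passed the test in neither. Selpercatinib-resistant cells differed from parental cells in 7 of the 9 genes, 2 higher and 5 lower, where 69.6% of all 14389 genes tested passed (35.2% higher and 34.4% lower). Pralsetinib-resistant cells differed in 4 of the 9, all lower, where 70.3% passed (35.8% higher and 34.6% lower). The medians over the 9 genes were -0.68 and -0.31 on the log2 scale, against -0.000487 and 0.00612 over all genes. Both comparisons use the same 2 parental libraries, so their values are given side by side and were not tested for overlap. Marker levels of other cell types moved with these groups. All 9 epithelial markers were lower in both resistant groups, with a summed level of 1171 to 1256 CPM in selpercatinib-resistant and 645 to 1321 CPM in pralsetinib-resistant libraries, and Cldn7 and Esrp1 were below 1 CPM in both. Fibroblast markers summed over 10 genes were 14.1 to 15.1 CPM in parental, 1898 to 2098 CPM in selpercatinib-resistant and 1210 to 1384 CPM in pralsetinib-resistant cells, while the fibroblast markers Lum and Thy1 stayed below 1 CPM. Smooth muscle markers summed to 0.358 to 0.632, 336 to 353 and 123 to 272 CPM in the same order. Acta2 alone gave 302 to 314 and 99.5 to 236 CPM in the resistant groups, where Tagln, Myh11 and Des stayed below 1 CPM. Alveolar type 1 markers summed to 10.9 to 12, 58.9 to 72.9 and 57.1 to 70.8 CPM in that order. Of 4 tested, 2 were higher and 1 lower in selpercatinib-resistant cells, and 2 were higher in pralsetinib-resistant cells. Pdpn, among those tested, was below 1 CPM in parental cells and passed the filter only through resistant libraries. Akap5 alone gave 2.53 to 2.81, 49.7 to 63.2 and 46.8 to 60.8 CPM of these sums, and Hopx was below 1 CPM throughout. The part of these shifts in the results on the 9 genes was not tested.

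Hmga2 was again the gene with the largest difference. Parental libraries held 1565 and 1643 CPM, selpercatinib-resistant libraries 39.2 and 40.6 CPM, and pralsetinib-resistant libraries 35.6 CPM at 200 nM and 20.5 CPM at 400 nM. The groups did not overlap. Log2 differences from parental cells were -5.33 (SE 0.25) in selpercatinib-resistant and -5.84 (SE 0.25) in pralsetinib-resistant cells, with edgeR adjusted p = 1.44e-06 and 1.04e-06. Of 18 HMGA2, LIN28 and let-7 target genes tested, 11 fell and 4 rose in selpercatinib-resistant cells, and 11 fell and 2 rose in pralsetinib-resistant cells. These counts stand beside 69.6% and 70.3% of all genes that passed (34.4% and 34.6% lower). Hmga1 averaged 2020 ± 95.7 CPM in parental, 136 ± 4.88 in selpercatinib-resistant and 133 ± 8.08 CPM in pralsetinib-resistant cells (SD, n = 2 each). Igf2bp2, an RNA-binding protein whose gene HMGA2 is known to activate, averaged 272 ± 3.91, 82.8 ± 2.29 and 66 ± 12.5 CPM in the same order. Mycn rose here too, from 0.647 ± 0.277 to 5.44 ± 0.224 and 5.85 ± 0.118 CPM, and Dicer1, which encodes the nuclease that matures microRNAs, fell by 0.83 (SE 0.06) on the log2 scale in selpercatinib-resistant cells. Mycn was below 1 CPM in every parental library and passed the filter only through resistant libraries.

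Sox9 dropped by a similar factor in every resistant library. It stood at 175 and 174 CPM in parental, 17.9 and 17.6 CPM in selpercatinib-resistant, and 21 and 17.5 CPM in pralsetinib-resistant cells. All 4 resistant libraries lay far below both parental ones. The log2 differences were -3.30 (SE 0.10, edgeR adjusted p = 2e-07) and -3.18 (SE 0.10, edgeR adjusted p = 2.12e-07), and the resistant groups did not pass the test against each other (edgeR adjusted p = 0.463). Of 8 SOX9 partner and cartilage genes tested, 5 rose and 2 fell in each resistant group, beside 69.6% and 70.3% of all genes that passed. Sox5, Lgr5 and Col2a1 were below 1 CPM in every parental library and passed the filter only through resistant libraries. The count of rises was therefore set in part by selection. Acan was among the 2 that fell, from 496 ± 6.52 CPM to 2.34 ± 0.0876 and 0.923 ± 0.327 CPM, and Etv4 was the other. Sox5, a partner of SOX9 in cartilage, rose from 0.534 ± 0.212 to 15.1 ± 0.774 and 8.85 ± 2.93 CPM, and Lgr5, a WNT pathway receptor gene, rose from 0.608 ± 0.19 to 4.61 ± 0.622 and 4.71 ± 0.628 CPM.

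**Figure D3:**
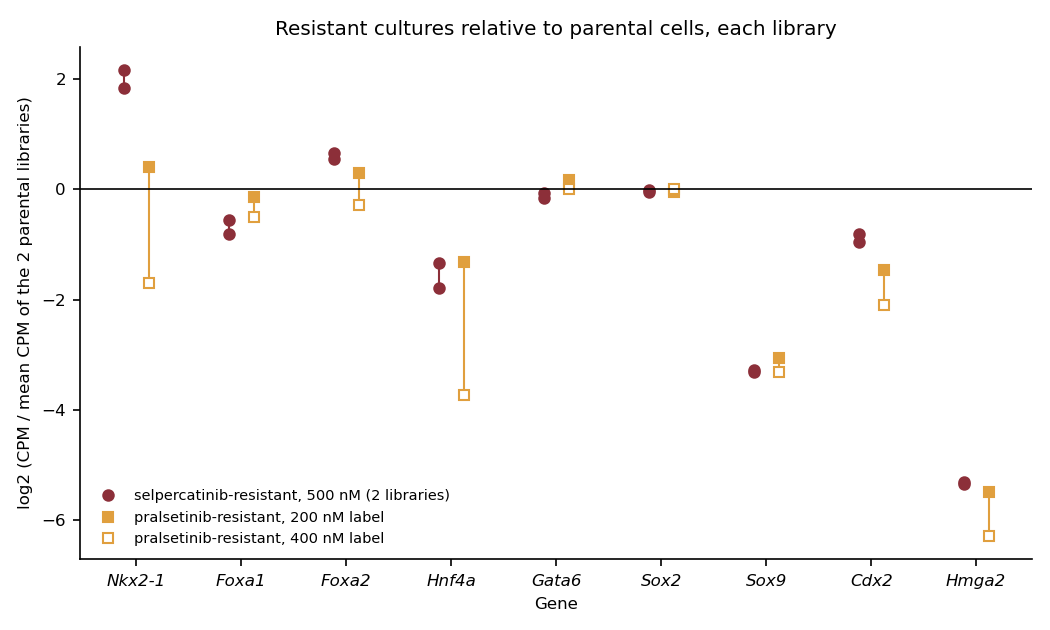
The log2 ratio of each resistant library to the mean of the 2 parental libraries for the 9 genes; circles are selpercatinib-resistant libraries, filled and open squares the pralsetinib-resistant libraries labelled 200 and 400 nM, and lines join libraries of 1 group. Sox9 and Hmga2 are low in all 4 libraries, Sox2 and Gata6 sit at 0, and the squares spread widely in Nkx2-1 and Hnf4a.

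The gut-lineage factors Cdx2 and Hnf4a had lower levels in both resistant groups. Cdx2 stood at 32.1 and 30.8 CPM in parental, 17.8 and 16.3 CPM in selpercatinib-resistant, and 11.4 and 7.32 CPM in pralsetinib-resistant cells. The 3 groups did not overlap, and the log2 differences from parental cells were -0.88 (SE 0.18, edgeR adjusted p = 0.0034) and -1.74 (SE 0.19, edgeR adjusted p = 0.000105). Hnf4a stood at 67.3 and 61.6 CPM in parental, 25.6 and 18.7 CPM in selpercatinib-resistant, and 25.9 and 4.83 CPM in pralsetinib-resistant cells. All 4 resistant libraries were below the parental ones, and the pralsetinib-resistant pair differed by a factor of 5.35. The log2 differences were -1.54 (SE 0.59, edgeR adjusted p = 0.0482) and -2.07 (SE 0.60, edgeR adjusted p = 0.0164). The shared estimate of the spread takes in the pralsetinib-resistant pair, and with only the parental and selpercatinib-resistant libraries the adjusted p of the first was 4.96e-09 at a difference of -1.53. That call was lost in 7 of 14 alternatives, with adjusted p = 0.0663 for library totals, 0.117 in DESeq2, 0.0527 in limma with a pseudocount of 0.5, 0.156 and 0.129 without either parental library, and 0.112 and 0.2 without either selpercatinib-resistant library. The pralsetinib call was lost without either parental library (edgeR adjusted p = 0.0722 and 0.0609). Without the 200 nM library the pralsetinib value was -3.73, and without the 400 nM library it was -1.31.

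Other genes of gut, stomach and liver passed in both directions, with 4 higher and 5 lower of 17 tested in selpercatinib-resistant cells and 4 higher and 6 lower in pralsetinib-resistant cells. These 9 and 10 of 17 stand beside 69.6% and 70.3% of all genes. Gata5, an endoderm factor, averaged 8.12 ± 0.324 CPM in parental cells and 0.0127 ± 0.018 and 0.0493 ± 0.0697 CPM in the resistant groups. Anxa10, a gastric annexin, fell from 6.2 ± 0.0639 to 0.19 ± 0.0708 and 0.371 ± 0.192 CPM. In selpercatinib-resistant cells Ctse fell by 4.57 (SE 0.47), opposite to its acute rise of 1.65. The fetal liver gene Afp rose from 4.79 ± 0.0534 to 13.5 ± 1.99 CPM in pralsetinib-resistant cells.

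Nkx2-1 was higher in selpercatinib-resistant than in parental cells and did not pass the test in pralsetinib-resistant cells. Parental libraries held 1.84 and 1.86 CPM, selpercatinib-resistant libraries 8.28 and 6.61 CPM, and pralsetinib-resistant libraries 2.44 and 0.568 CPM. The selpercatinib-resistant libraries were above the other 4, and the pralsetinib-resistant pair lay on both sides of the parental cells. The log2 difference from parental cells was 2.01 (SE 0.51, edgeR adjusted p = 0.00873) in selpercatinib-resistant and -0.30 (SE 0.53, edgeR adjusted p = 0.629) in pralsetinib-resistant cells. Without 1 parental library or the other, the first had an adjusted p of 0.0649 or 0.0682 at a value of 1.99. Without the 200 nM library the pralsetinib value was -1.70, past the threshold, and without the 400 nM library it was 0.40. Of 11 airway and alveolar genes tested, 3 rose and 6 fell in selpercatinib-resistant cells, and 4 rose and 5 fell in pralsetinib-resistant cells. Over all genes 69.6% and 70.3% passed. The surfactant genes stayed below 1 CPM, whereas Slc34a2, a phosphate transporter of alveolar type 2 cells, reached 1.48 and 1.5 CPM in selpercatinib-resistant libraries. Slc34a2 passed the filter only through these libraries. Cldn3 fell from 196 ± 5.3 to 3.21 ± 0.198 and 3.76 ± 0.893 CPM and the mucin gene Muc1 from 93.6 ± 3.22 to 5.63 ± 0.668 and 2.38 ± 1.04 CPM, whereas Foxj1 rose from 3.71 ± 0.505 to 24 ± 0.197 and 66.9 ± 14.7 CPM.

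In selpercatinib-resistant cells Foxa1 and Foxa2 had directions opposite to those under acute treatment. Foxa1 stood at 123 and 124 CPM in parental, 83.9 and 70.9 CPM in selpercatinib-resistant, and 112 and 87.4 CPM in pralsetinib-resistant cells. All resistant libraries were below the parental ones, and the log2 difference passed in selpercatinib-resistant (-0.68, SE 0.13, edgeR adjusted p = 0.00212) and not in pralsetinib-resistant cells (-0.31, SE 0.13, edgeR adjusted p = 0.0608). Foxa2 stood at 22.3 and 23.6 CPM in parental, 33.6 and 36.2 CPM in selpercatinib-resistant, and 28.2 and 18.9 CPM in pralsetinib-resistant cells. The selpercatinib-resistant libraries were the highest, with a log2 difference of 0.61 (SE 0.17, edgeR adjusted p = 0.0133), and the pralsetinib-resistant pair lay on either side of parental cells (0.04, SE 0.17, edgeR adjusted p = 0.852). The Foxa2 call in selpercatinib-resistant cells was lost without either parental library (0.0897 and 0.0646) and without the second selpercatinib-resistant library (0.0674). The acute and resistance fits are separate and the change of direction between them was not tested. Untreated Foxa1 was 1.87 times as high in parental cells as in acute DMSO. That is more than its acute difference (1.73-fold) or its difference in selpercatinib-resistant cells (1.6-fold).

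Sox2 and Gata6 were the 2 genes that passed in neither resistant group in the fit of all 3 groups. Sox2 stood at 14.4 and 15.3 CPM in parental, 14.7 and 14.4 CPM in selpercatinib-resistant, and 14.4 and 14.9 CPM in pralsetinib-resistant cells. All 3 groups overlapped, and the log2 differences were -0.03 (SE 0.09) and -0.02 (SE 0.09), with edgeR adjusted p = 0.79 and 0.851. Gata6 stood at 66.1 and 67.4 CPM, 64.1 and 60.1 CPM, and 74.9 and 67.1 CPM in the same order, with log2 differences of -0.10 (SE 0.08) and 0.09 (SE 0.08). Scaled by library totals in place of TMM, the median log2 difference of all genes was 0.144 and 0.177, and Sox2 read 0.12 and 0.15 higher without passing the test. With that scaling Gata6 was 0.26 higher in pralsetinib-resistant cells and passed (edgeR adjusted p = 0.013), as it did without the 400 nM library (0.17, adjusted p = 0.0255). Of 3 squamous and basal genes tested, 1 rose and 2 fell in each resistant group, beside 69.6% and 70.3% of all genes that passed. Pitx1 fell from 3.3 ± 0.0564 to 0.282 ± 0.00366 and 0.154 ± 0.061 CPM. The basal marker Trp63 was the 1 that rose. It ran from 0.0663 to 0.0877 CPM in parental, 1.36 to 1.92 in selpercatinib-resistant and 0.374 to 0.422 CPM in pralsetinib-resistant libraries. Trp63 thus passed the filter only through selpercatinib-resistant libraries. The other 2, Pitx1 and Dsg3, were below 1 CPM in every resistant library and passed it only through the parental ones. The directions of these 3 genes were therefore set by selection.

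Among 31 other lung and foregut factors tested, 13 rose and 15 fell in selpercatinib-resistant cells, and 11 rose and 15 fell in pralsetinib-resistant cells. Over all genes 69.6% and 70.3% passed. Klf5, a factor of epithelial progenitors, fell from 271 ± 4.29 to 31.3 ± 0.949 and 33.8 ± 2.51 CPM. Grhl2, a regulator of epithelial junction genes, fell from 21.3 ± 0.298 to 0.54 ± 0.0637 and 0.328 ± 0.0455 CPM. Runx1 fell from 208 ± 2.24 to 51.9 ± 0.472 and 38.1 ± 4.52 CPM, and Etv5 from 83.5 ± 0.0548 to 7.91 ± 0.317 and 6.8 ± 0.0575 CPM.

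**Figure D4:**
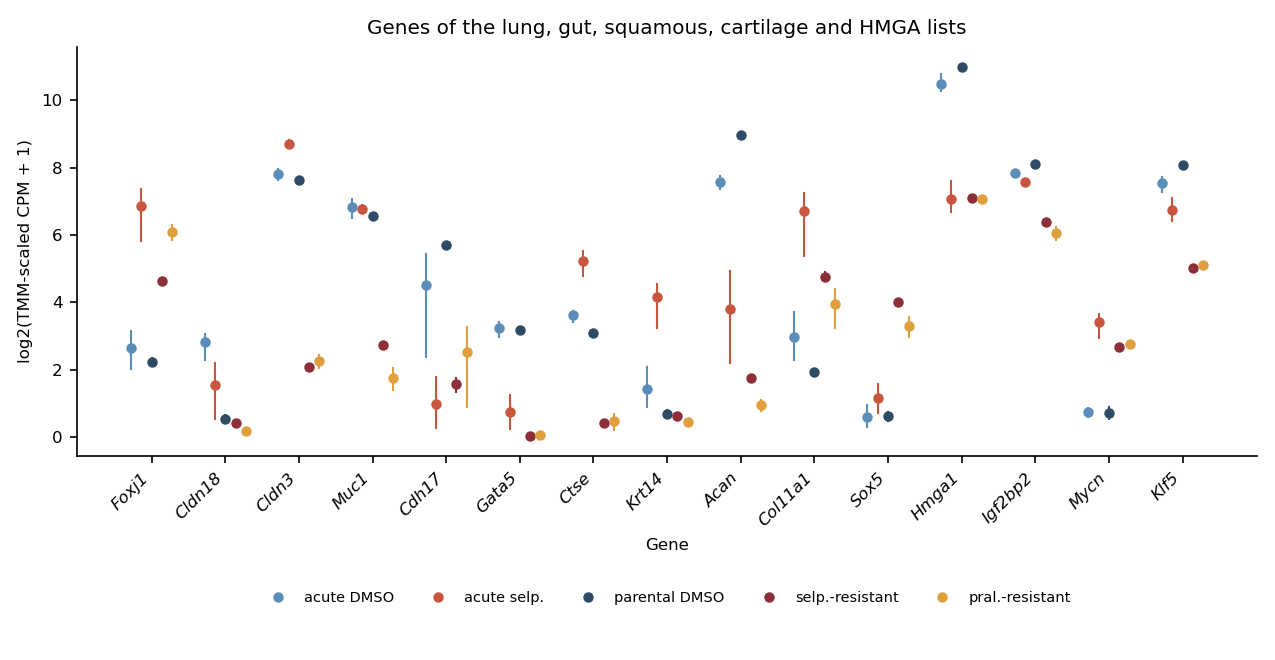
Group means (points) and the lowest and highest library (lines) of log2(TMM-scaled CPM + 1) for 15 genes of the lists in the 5 groups, with selp. for selpercatinib and pral. for pralsetinib. Hmga1 and Klf5 are lower in resistant cells, Acan is low in treated and resistant groups, Foxj1 and Mycn are higher in both, and Ctse is higher under acute treatment and near 0 in resistant cells.

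The direct comparison of the resistant groups asks whether the cultures differ by inhibitor. It passed for 2 of the 9 genes, both higher in selpercatinib-resistant cells, where 10.6% of all genes passed (6.46% higher and 4.13% lower). Nkx2-1 differed by 2.31 (SE 0.51, edgeR adjusted p = 0.0324) and Cdx2 by 0.86 (SE 0.19, edgeR adjusted p = 0.0306) on the log2 scale. Labelled doses differ between the groups (500 nM against 200 and 400 nM), so inhibitor, dose and culture cannot be told apart. Each call was lost without either parental library, without either selpercatinib-resistant library, and with only these 2 groups, where the adjusted p was 0.0874 and 0.0846. Foxa2 (0.57, SE 0.17, edgeR adjusted p = 0.0735), Foxa1 (-0.37, SE 0.13), Gata6 (-0.19, SE 0.08), Hmga2 (0.51, SE 0.21), Hnf4a (0.53, SE 0.60), Sox9 (-0.12, SE 0.09) and Sox2 (-0.01, SE 0.09) did not pass. Of the lists, Foxj1 was lower by 1.48 (SE 0.15) and Foxp1, a forkhead factor of lung epithelium, was higher by 0.50 (SE 0.06) in selpercatinib-resistant cells.

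The 2 pralsetinib-resistant libraries stood apart from each other in these genes. As plain CPM ratios, Nkx2-1 differed 4.29-fold and Hnf4a 5.35-fold between them, both higher at 200 nM. With a small constant added to each CPM, 18 of 13623 genes (0.132%) differed by more than a factor of 4. The constant shrinks the ratios of low genes such as Nkx2-1, so this share does not rank Nkx2-1. Hmga2 differed 1.74-fold, Cdx2 1.56-fold and Foxa2 1.49-fold in the same direction, and Sox2 differed by a factor of 1.03 in the other. With the constant added, 1.57% of genes lay over a factor of 2 in this pair, 0.0733% in the selpercatinib-resistant pair and 0.0378% in the parental pair. With 1 library at each dose there is no test, and dose and culture cannot be told apart.

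Across the groups of both tables, Hmga2 levels ran from parental and acute DMSO cells (tables normalised separately) through acute selpercatinib (77.3 ± 37.5 CPM) to selpercatinib-resistant (39.9 ± 0.952) and pralsetinib-resistant cells (28.1 ± 10.7). The lower neighbours in this order overlap or did not pass a test. For Sox2 the order was parental, pralsetinib-resistant and selpercatinib-resistant cells together near 14.8, 14.6 and 14.5 CPM, then acute DMSO (5.27 ± 0.433) and acute selpercatinib (1.07 ± 0.738). For Nkx2-1 selpercatinib-resistant (7.45 ± 1.18) and acute selpercatinib (5.06 ± 1.12) ranked above acute DMSO (3.23 ± 0.471), parental (1.85 ± 0.0107) and pralsetinib-resistant cells (1.5 ± 1.32 CPM). The first 2 of these ranges touch, and the last 2 overlap. Foxa1 was highest in parental (124 ± 0.897) and acute selpercatinib cells (112 ± 9) and lowest in acute DMSO (66.2 ± 14.9 CPM), and Gata6 varied least, with group means from 58.9 to 71 CPM. Within treated and resistant groups Foxa1 held the first place per kilobase, at 33.8, 23.3 and 30 CPM in acute selpercatinib, selpercatinib-resistant and pralsetinib-resistant cells.

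Genes with the most alike pattern were sought among 9935 genes by Pearson's r of log2(CPM + 1) over the 14 libraries, centred within each table, as a description of points that share libraries, groups and table. Hmga2 was most like Parvb, Fam78b and Csn3 (r = 0.995, 0.995 and 0.994), Sox9 most like Tmprss11e (0.992) and Sox2 most like Chtop (0.990). Cdx2 was most like Impdh1 (0.985), Foxa1 most like Lpcat4 (0.965), Hnf4a most like Slco2a1 (0.960) and Foxa2 most like Ell (0.920). The lowest best values were those of Nkx2-1 with Epb41l1 (0.883) and Gata6 with Slc35b3 (0.847). Among the 9 genes themselves the highest values were those of Cdx2 with Sox2 (0.843), with Hmga2 (0.837) and with Hnf4a (0.827), and the lowest was that of Foxa1 with Sox2 (-0.651).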

How the data were processed

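RNA from TR.1 cells was sequenced as poly(A) libraries made with a stranded kit, per the labels' protocol. Per the submitters' processing notes, reads went through FastQC, STAR on mm10 and edgeR, with no versions given, and the sources used here do not give the counting tool, the annotation or the strand setting. The deposited tables are named CPM, but their values are whole numbers that sum to different totals, so the deposited values were used as raw counts per gene. Symbols of 55391 of 55415 rows matched GENCODE M21 without regard to case. The other 24 rows are numbers, hold 0.163 to 0.215% of the counts of a library and stayed in library sizes and tests.

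Genes reaching 1 CPM in 4 or more acute libraries (13209) or in 2 or more resistance libraries (14389) were tested with edgeR 4.0.16 (R 4.3.3, TMM, quasi-likelihood, two-sided), with Benjamini-Hochberg adjustment over all genes tested and a threshold of 0.05. A gene below 1 CPM throughout 1 group could pass this filter only through the group where it is high. Its direction in the list and marker counts was then set by selection. The SE was taken as the size of the log2 difference divided by the root of its F statistic, an approximation. The acute fit had day as a block, and after subtracting arm means the 2 libraries of a day had a correlation of 0.467 to 0.66 across 13209 genes (libraries of different days up to 0.599). For resistance, 1 fit held all 3 groups. Alternatives used DESeq2 1.42.0, limma 3.58.1 on log2(CPM + 1) or log2(CPM + 0.5), other scaling, no filter and omission of each library or day. The fits were tested on simulated data.

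The 9 genes, the gene lists and the tests were chosen with earlier results of these data known. From each list, up to 4 genes per comparison were named, those with the lowest p among genes called whose groups do not overlap (acute: the same direction on each day) and whose mean is at least 1 CPM. Some genes that meet this rule are not reported here. Lin28a, Lin28b, Slc34a2, Dnah5, Pitx1 under acute treatment, Abca3, Cd14, Tubb4b, Trp63, Akap5, Aqp5, Acta2, Cyp2f2 and markers below 1 CPM were named outside this rule, after their values were seen. The 3 promoters printed are those of the members with the largest acute falls. Figures were drawn with matplotlib 3.10.9.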

Additional observations from a re-analysis of the deposited data

Results flagged for a closer look

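Among the 9 genes, 2 had an acute difference that moved with day by the interaction of treatment and day. These are Foxa2 at -0.34 and Hmga2 at -0.54 log2 units per day. In the comparison of the resistant groups 2 genes had different changes from the same parental libraries, Nkx2-1 by 2.31 and Cdx2 by 0.86 on the log2 scale. Dixon's test marked no library in 18 groups of 4, where chance marks about 1 in 20 among replicates. Each group here holds 4 different days of an acute arm, so a trend over days widens the range and that rate does not hold. Groups of 2 libraries, as in the resistance table, were too small for it. The test therefore does not show that no library stands apart.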

How the results depend on the processing

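Of 639 refits of the 54 tested values of the 9 genes, 549 kept their direction and side of the threshold, 43 lost a call, 31 gained one and 16 changed sign. A refit that changed sign was counted only as such, whether or not it passed. Under acute treatment Foxa1, Sox2, Cdx2 and Hmga2 kept their calls in all 11 alternatives, and 5 of the 9 passed with no replicate block (Foxa2, Hnf4a and Sox9 lost). Without 1 day in turn the acute slope called 0 to 5 of the 9 and 25 to 1512 genes, and the slope in DMSO called 0 to 4 of the 9 and 102 to 5945 genes (2636 at an unadjusted p under 0.05 for the lowest). At 0 of the 9, edgeR called 25 genes for the acute slope without day 1, with 1092 at an unadjusted p under 0.05. With no filter the acute slope called 4 of the 9 and 1167 genes, and DESeq2 called 910 genes.

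Without 1 library in turn, 4 to 7 of the 9 and 7862 to 11186 genes passed in selpercatinib-resistant, 3 to 7 and 8004 to 10698 genes in pralsetinib-resistant and 0 to 6 between resistant cells, where 8 to 4443 genes passed. Between them, 6 of the 9 and 2745 genes passed with no filter, 2371 genes with DESeq2, and 0 of the 9 and 568 genes in edgeR with these 2 groups only, with 3271 at an unadjusted p under 0.05. The replicate block, possible only for parental and selpercatinib-resistant cells, called 7 of the 9 and 11027 genes. These libraries share only a number (correlation of deviations -0.0899).

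Sign changes were in values that had not passed in the reported fit. With library totals Gata6 became 0.04 and Sox2 0.12 in selpercatinib-resistant and Sox2 0.15 in pralsetinib-resistant cells, and with no filter the last was 0.00049. The cause was not tested. Without 1 library in turn, the lowest and highest values were as follows. The Sox9 acute slope ran from -0.10 to 0.11 and the Nkx2-1 slope in DMSO from -0.09 to 0.14. In pralsetinib-resistant cells Foxa2 ran from -0.27 to 0.30, Sox2 from -0.07 to 0.01 and Nkx2-1 from -1.70 to 0.40. Between resistant cells Sox2 ran from -0.03 to 0.01, Sox9 from -0.24 to 0.02 and Hnf4a from -0.23 to 2.19. Low counts limit Nkx2-1 (41 counts in 1 pralsetinib-resistant library) and Sox2 (36 and 46 counts in 2 treated libraries).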
